A study of Mus musculus with 6 samples.

Results

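The transcripts of 8 genes that serve cell adhesion and cell fusion in muscle were followed: 3 cadherins (*Cdh15*, *Cdh2*, *Cdh11*), 3 catenins (*Ctnna1*, *Ctnnb1*, *Ctnnd1*) and the fusion genes *Mymk* (myomaker) and *Mymx* (myomixer). They were chosen by symbol from a table of 20654 genes, in which all 8 have a row. The samples were muscle satellite cells (MuSCs), the stem cells of skeletal muscle, sorted as VCAM1-positive cells without CD31, CD45 or Sca1 and grown for 3 d in growth medium. There were 3 libraries labelled wild type and 3 labelled *Piezo1* cKO, from mice of C57BL/6 background. PIEZO1 is a mechanosensitive ion channel, and the comparison asked how the transcriptome of these cells differs when its gene is deleted. The labels give the controls as wild type, whereas the paper calls them control and, in a legend on gene sets from these data, *Pax7* CreERT2/+. The cKO mice carry floxed *Piezo1* alleles (tm1c) with *Pax7* CreERT2, so that a Cre recombinase driven by *Pax7*, a gene of MuSCs, acts only after tamoxifen. Mice were injected with tamoxifen, and 4-OH TMX (1 μM) was in the growth medium of both groups. Neither an age nor a link between each library and its own mouse or culture is given in the sources used here, so the p-values measure the spread between these 6 libraries.

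Cadherins are transmembrane proteins that bind like cadherins on a neighbouring cell. Inside the cell, p120-catenin (the product of *Ctnnd1*) holds the cadherin at the membrane, β-catenin (*Ctnnb1*) binds the end of its tail, and α-catenin (*Ctnna1*) joins the complex to actin. M-cadherin (*Cdh15*) and N-cadherin (*Cdh2*) are known at the contact of the MuSC with its fibre and between myoblasts. β-catenin also carries the canonical Wnt signal to the nucleus. When myoblasts differentiate, they make myomaker and myomixer, membrane proteins that act at successive steps of the fusion of their membranes into myotubes.

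A count stands for 1 cDNA molecule carrying a unique molecular identifier (UMI). The wild type libraries 1 to 3 held 740936, 931168 and 891531 counts, and those labelled *Piezo1* cKO held 810096, 726378 and 769295. Levels are given in CPM, the counts scaled to a total of 1e+06 over the 8551 tested genes, after TMM normalisation. In this unit, 3 counts, the upper limit that a count of 0 allows, corresponded to between 3.35 and 4.31 CPM. Intervals and floors of single counts cover counting error only. The quasi-likelihood test of edgeR was used, and a gene was called when its p, adjusted by the method of Benjamini and Hochberg over all tested genes, was under 0.05. SD and SE are the standard deviation over 3 libraries and the standard error of the fitted log2 fold change.

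The targeted gene itself was near the floor. *Piezo1* had 11, 5 and 6 counts in the wild type libraries and 7, 12 and 9 counts in those labelled *Piezo1* cKO, and the groups overlapped. The levels were 9.49 ± 5.53 and 12.2 ± 3.50 CPM (SD, n = 3), with a log2 fold change of 0.42 (SE 0.47) and an edgeR adjusted p of 0.792. *Piezo1* was too low for the count filter and was fitted apart from it. Reads from the part of the gene that Cre removes cannot be told apart in counts per gene. The groups are therefore taken from their labels. RT-qPCR of *Piezo1* and calcium imaging with a PIEZO1 agonist, which the study also ran, are not used here. The paper ran the RT-qPCR on freshly isolated MuSCs, on MuSCs grown for 3 d in growth medium, and again in its RNA-seq figure. Citing figures of this RT-qPCR and of the imaging, it takes the deletion as effective. Whether the RT-qPCR used the RNA of these libraries is not given in the sources used here. Every direction given below is that of the labels, which the counts of *Piezo1* do not bear out, and an exchange of labels was not tested. The libraries are called "labelled *Piezo1* cKO" throughout.

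None of the 7 adhesion and fusion genes that passed the count filter was called in edgeR, where 0.784% of the 8551 tested genes were called. Each count of 0 called genes in the lists below stands beside this share. At an unadjusted p under 0.05 there were 3 (*Cdh15*, *Ctnnd1* and *Mymk*), all with higher values in the libraries labelled *Piezo1* cKO, a direction in which 6.14% of all tested genes passed. The same 3 genes had no overlap between the groups, against 8.2% of all tested genes in that direction. DESeq2, which gave an adjusted p for 6 of them, also called 0 (0.674% of all genes with an adjusted p), as did limma-voom (0.632%). Of the 7 genes, 6 had a positive log2 fold change, with a median of 0.20, whereas 50.2% of all tested genes were positive, with a median of 0.00. *Mymx*, the remaining gene, had too few counts to pass the filter and is described from its counts.

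**Figure D1:**
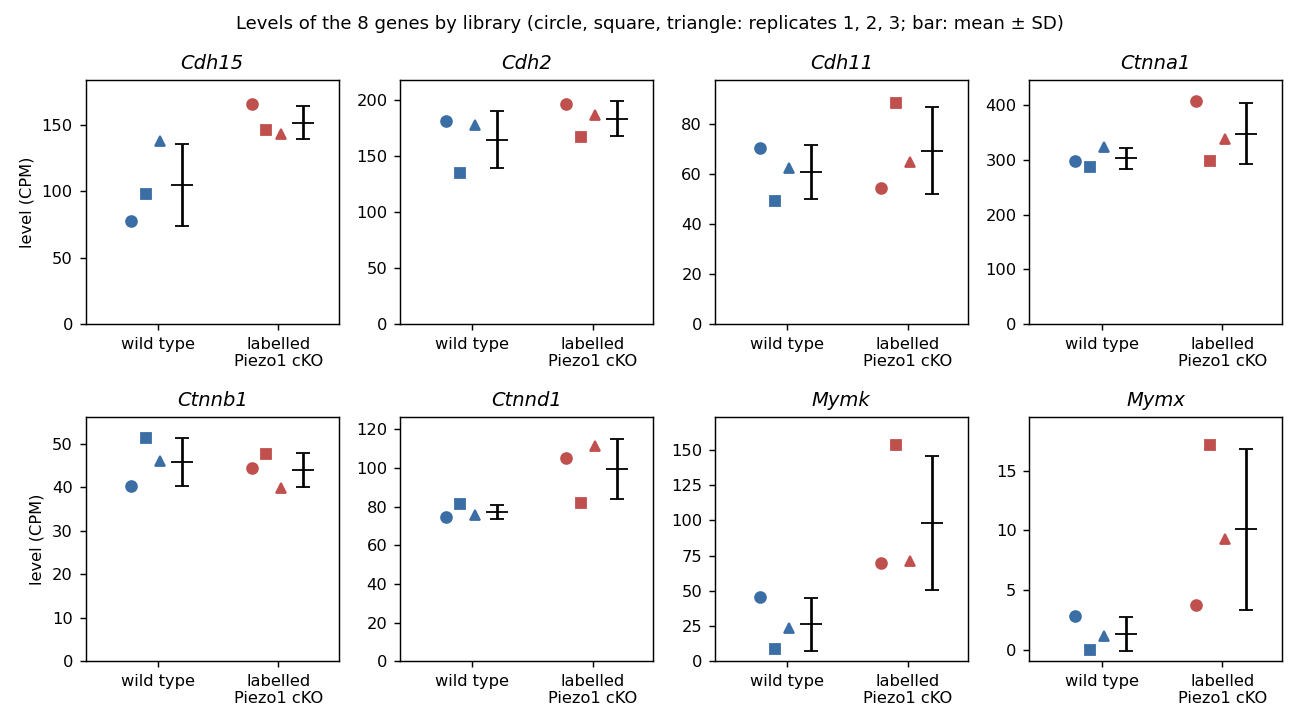
Level of each of the 8 genes in CPM (vertical axes, starting at 0 or just below it) in the 3 wild type libraries (blue) and the 3 libraries labelled *Piezo1* cKO (red). Circles, squares and triangles are replicates 1, 2 and 3, and the bars beside them are the mean ± SD (n = 3). *Cdh15*, *Ctnnd1*, *Mymk* and *Mymx* show no overlap between the groups, by a narrow margin for *Ctnnd1* (81.4 against 81.9 CPM), and the other genes overlap.

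Among the cadherins, *Cdh15* had the only pair of groups that did not overlap. It lies on chromosome 8 (chr8:122847966-122867397, plus strand, GRCm38). Its level was 77.7, 98.2 and 138 CPM in wild type libraries 1 to 3, and 166, 147 and 143 CPM in those labelled *Piezo1* cKO. Every wild type value was below every value of the other group, but wild type 3 lay close to the libraries labelled *Piezo1* cKO and far from wild type 1. The means were 105 ± 30.8 and 152 ± 12.4 CPM (SD, n = 3), and the coefficient of variation was 29.4% among wild type libraries and 8.13% in the other group. The log2 fold change was 0.53 (SE 0.16, 95% interval 0.20 to 0.85), a fold of 1.44 (1.15 to 1.81). The edgeR p was 0.00194 before adjustment and 0.118 after it, so the difference was not called. Its call depended on wild type 3: without this library the log2 fold change was 0.78 and the adjusted p 0.0101, in a fit that called 1.48% of its genes. With any of the other 5 libraries left out, the log2 fold change was positive and the adjusted p lay above 0.05. The total number of *Cdh15* counts was 259 in the wild type libraries and 350 in the others.

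*Cdh15* is on the same chromosome as *Piezo1* (chr8:122481698-122551329, minus strand), and starts 296637 bp beyond it. Within 1000000 bp of *Piezo1* on either side, 29 genes were tested and 0 were called, and 5 had an unadjusted p under 0.05, beside 11.9% of all tested genes in either direction. Of these neighbours, 12 had a positive log2 fold change, with a median of -0.03, and *Cdh15* ranked 6 from the highest. The groups did not overlap for *Rnf166*, *Galns*, *Cdh15*, *Tubb3* and *Def8*, all higher under the cKO label, beside 8.2% of all tested genes. Nor did they overlap for *Ctu2*, *Aprt*, *Ankrd11* and *Rpl13*, all lower under that label, beside 8.31% of all tested genes. The annotated gene *Gm20388* overlaps *Cdh15* on its strand and runs over *Piezo1*. It was not analysed here, and how reads in shared exons were assigned is not given in the sources used here.

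*Cdh2*, on chromosome 18, encodes N-cadherin, which like M-cadherin links MuSCs to the fibre. Its level was 181, 135 and 177 CPM in the wild type libraries and 196, 166 and 187 CPM in those labelled *Piezo1* cKO. The groups overlapped, with wild type 2 the lowest library. Its log2 fold change was 0.16 (SE 0.15, 95% interval -0.13 to 0.46, edgeR adjusted p = 0.717), an interval that leaves room for a difference in either direction.

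*Cdh11* (chr8:102632095-102785642, minus strand) encodes cadherin-11, which is known from mesenchymal cells. Its level was 70.5, 49.1 and 62.6 CPM in the wild type libraries, and 54.5, 88.5 and 64.9 CPM in those labelled *Piezo1* cKO. Library 2 labelled *Piezo1* cKO was the highest and wild type 2 the lowest, and the remaining libraries interleaved. The log2 fold change was 0.20 (SE 0.21, 95% interval -0.21 to 0.61, edgeR adjusted p = 0.768), and it was -0.01 without *Piezo1* cKO 2.

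Of the 15 rows of the table whose symbol starts with Cdh and a number, *Cdh15*, *Cdh2* and *Cdh11* held 1733 of 2150 counts (80.6%). Within the sum of these 3 genes, the share of *Cdh15* was 23.6%, 34.8% and 36.6% in wild type libraries 1 to 3. It was 39.8%, 36.5% and 36.2% in the libraries labelled *Piezo1* cKO, of which 2 lay just below wild type 3. The share of *Cdh2* was 55.0%, 47.8% and 46.9% in wild type libraries, and 47.1%, 41.4% and 47.3% in the others. The split of cadherin counts therefore overlapped between the groups, and wild type 1 stood apart with the lowest share of *Cdh15* and the highest share of *Cdh2*. These shares are not divided by transcript length.

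Of the catenins, *Ctnnd1* (chr2:84600071-84650765, minus strand) differed most. Its product, p120-catenin, keeps cadherins at the cell surface. The level was 74.8, 81.4 and 75.6 CPM in the wild type libraries, close together, and 105, 81.9 and 111 CPM in those labelled *Piezo1* cKO. The groups did not overlap, but *Piezo1* cKO 2 exceeded wild type 2 by less than 1 CPM. The log2 fold change was 0.36 (SE 0.18, 95% interval 0.01 to 0.72), with an edgeR p of 0.0445 before adjustment and 0.408 after it, and the difference was not called. In the fits with 1 library left out, the log2 fold change ranged from 0.27 to 0.48, with no call.

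*Ctnna1*, on chromosome 18, encodes the α-catenin that binds actin. Its level was 298, 287 and 324 CPM in wild type libraries, and 407, 297 and 338 CPM in those labelled *Piezo1* cKO. *Piezo1* cKO 1 was the highest library, and *Piezo1* cKO 2 lay within the wild type range. Its log2 fold change was 0.20 (SE 0.14, 95% interval -0.07 to 0.47, edgeR adjusted p = 0.588).

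*Ctnnb1* (chr9:120929216-120960507, plus strand) encodes β-catenin and was the gene with a negative estimate. Its level was 40.3, 51.3 and 46.1 CPM in the wild type libraries and 44.4, 47.5 and 39.7 CPM in the other group. The groups overlapped. The log2 fold change was -0.07 (SE 0.24, 95% interval -0.54 to 0.40, edgeR adjusted p = 0.945), and it was 0.00 when libraries were scaled by total counts only and 0.02 without wild type 2. With 28 to 46 counts per library, a difference within this interval was not detectable at this depth.

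**Figure D2:**
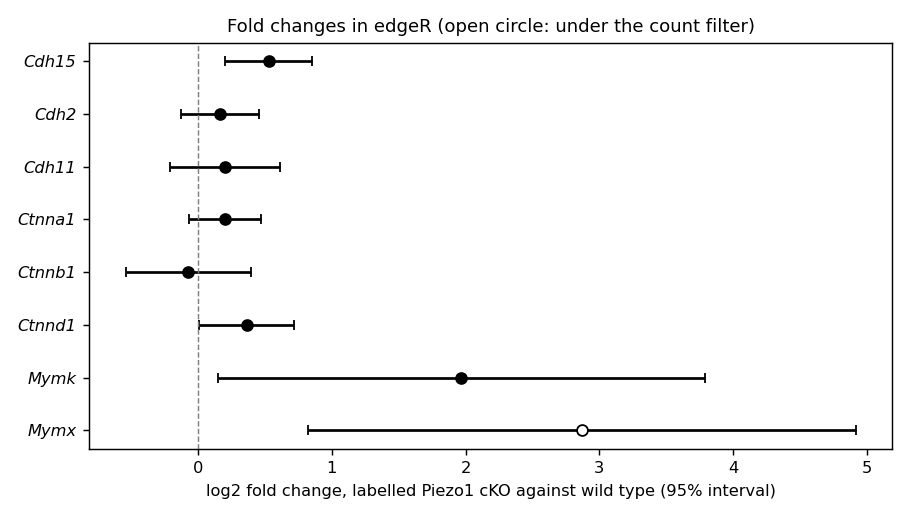
Log2 fold change of the 8 genes, libraries labelled *Piezo1* cKO against wild type (horizontal axis), from edgeR, with 95% intervals. The dashed line marks no difference. *Cdh15*, *Ctnnd1* and *Mymk* have intervals above 0 before adjustment over all genes, and the interval of *Mymk*, 0.15 to 3.79, is the widest of the 7 genes that passed the filter. The open circle is *Mymx*, which did not pass it. Its interval, 0.82 to 4.92, also lies above 0 before adjustment.

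The fusion genes had the highest fold changes of the 8 genes and also the fewest counts when summed over the wild type libraries. Both encode small membrane proteins, so the coding sequence is given to show how short they are. In the GENCODE M21 annotation of GRCm38, *Mymx* (chr17:45600971-45602102, minus strand) has 4 coding transcripts, of which 3 have a coding sequence of 255 bases in 1 exon (chr17:45601417-45601671), that is, 84 codons and a stop. *Mymk* (chr2:27061636-27072179, minus strand) has 2 coding transcripts, and the longer coding sequence has 666 bases (221 codons and a stop) in 5 exons. The first coding exon holds 135 bases of it (chr2:27071881-27072015). The whole coding sequence of *Mymx* and the coding part of this exon of *Mymk* follow, 5′ to 3′ on the strand of the gene, with start and stop codons in capitals.
Mymx: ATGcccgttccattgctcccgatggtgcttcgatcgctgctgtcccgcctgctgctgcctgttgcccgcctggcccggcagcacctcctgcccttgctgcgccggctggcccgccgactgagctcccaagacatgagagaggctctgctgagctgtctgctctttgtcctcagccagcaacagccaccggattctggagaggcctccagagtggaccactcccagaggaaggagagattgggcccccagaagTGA
Mymk: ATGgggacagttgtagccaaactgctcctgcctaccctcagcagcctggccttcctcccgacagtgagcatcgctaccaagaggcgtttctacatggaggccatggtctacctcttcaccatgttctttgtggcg

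*Mymk* had 32, 8 and 20 counts in wild type libraries 1 to 3, and 55, 116 and 54 counts in the other group, labelled *Piezo1* cKO. In CPM these were 46.0, 8.92 and 23.6 against 69.7, 153 and 71.6. Every library labelled *Piezo1* cKO was higher than every wild type library, with *Piezo1* cKO 2 the highest and wild type 2 the lowest. The means were 26.2 ± 18.7 and 98.2 ± 47.7 CPM (SD, n = 3). The log2 fold change was 1.97 (SE 0.69, 95% interval 0.15 to 3.79), a fold of 3.91 (1.11 to 13.8). The edgeR p was 0.0333 before adjustment and 0.37 after it, so *Mymk* was not called. In 2 other fits it was. Without wild type 2 the log2 fold change was 1.53 and the adjusted p 6.6e-05, where 0.849% of the genes were called. With no filter on low counts they were 1.96 and 0.00419, where 0.67% were called. In the fits that left out 1 of the other libraries, the log2 fold change lay between 1.49 and 2.60 and the adjusted p was 0.19 or more. In bulk RNA, more cells that express a gene and more RNA per expressing cell cannot be told apart.

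*Mymx* had 2, 0 and 1 counts in wild type libraries and 3, 13 and 7 counts in those labelled *Piezo1* cKO. These were 2.88, 0.00 and 1.18 CPM against 3.80, 17.2 and 9.28 CPM, of which only *Piezo1* cKO 2 and 3 stood above the floor of 3 counts. Wild type 1 and *Piezo1* cKO 1 differed by 1 count. Over the group, 3 counts stood against 23, a ratio of rates of 8.13 (exact 95% interval 2.46 to 42.3, counting error only, which leaves out the spread between libraries). In the fit that kept *Mymx* despite the filter, the log2 fold change was 2.87 (SE 1.03) with an edgeR adjusted p of 0.056. With 1 library left out, the log2 fold change ranged from 2.26 (without *Piezo1* cKO 2) to 3.81 (without wild type 1). This value was on the edge of the threshold: the adjusted p was 0.0497 with DESeq2 size factors (0.842% of all genes called), 0.0332 with no filter, 0.00967 without *Piezo1* cKO 1 (1.98% called) and 0.629 without *Piezo1* cKO 2.

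The myogenic regulators gave the context of both fusion genes. *Myog* (myogenin) drives terminal differentiation and had 40, 3 and 45 counts in wild type libraries and 63, 203 and 92 counts in those labelled *Piezo1* cKO. In CPM these were 57.5, 3.35 and 53.1 against 79.8, 268 and 122. The groups did not overlap, but the spread within them was wide, and the log2 fold change of 2.09 (SE 0.93) had an edgeR adjusted p of 0.468. It was 1.45 without *Piezo1* cKO 2 and 1.51 without wild type 2. *Myh3*, the embryonic myosin heavy chain of new myotubes, was singled out after its values were seen. It had 1, 0 and 0 counts in wild type libraries and 9, 35 and 4 in the others, under the count filter. *Myod1*, the determination factor of myoblasts, had a log2 fold change of -0.15 (edgeR adjusted p = 0.743), which was 0.09 under cyclic loess normalisation. Of the 5 measured differentiation genes, 3 were tested (2 positive, 1 negative, median 0.16). In edgeR 0 were called and 0 had an unadjusted p under 0.05, beside 0.784% and 11.9% of all tested genes.

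*Mymk*, *Mymx*, *Myog* and *Myh3* were each highest in *Piezo1* cKO 2, whereas *Myod1* was lowest there. Of the other differentiation genes measured, *Tnnt2* was highest in *Piezo1* cKO 3 (302 against 249.6 CPM in *Piezo1* cKO 2), and *Mef2c* had 7 counts in each of these libraries. *Piezo1* cKO 2 held 41.1% of the CPM of *Mymk* summed over the 6 libraries, 50.1% of *Mymx*, 45.9% of *Myog* and 71.8% of *Myh3*. Wild type 2 held 2.39%, 0%, 0.573% and 0% of them. The cadherins and catenins were more even: the lowest share was 10.1%, of *Cdh15* in wild type 1, and the highest 22.7%, of *Cdh11* in *Piezo1* cKO 2. *Piezo1* cKO 2, the highest library for *Mymk*, was the lowest of its group for *Cdh2*, *Ctnna1* and *Ctnnd1*, the middle for *Cdh15* and the highest for *Cdh11* and *Ctnnb1*. *Piezo1* cKO 2 also weighed on the calls over the whole table, of which there were 67 with all libraries and 6 without it. Without wild type 2, the log2 fold changes of *Mymk* and *Mymx* were 1.53 and 2.28 (edgeR adjusted p = 6.6e-05 and 0.332). Without *Piezo1* cKO 2 they were 1.49 and 2.26 (edgeR adjusted p = 0.345 and 0.629).

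**Figure D3:**
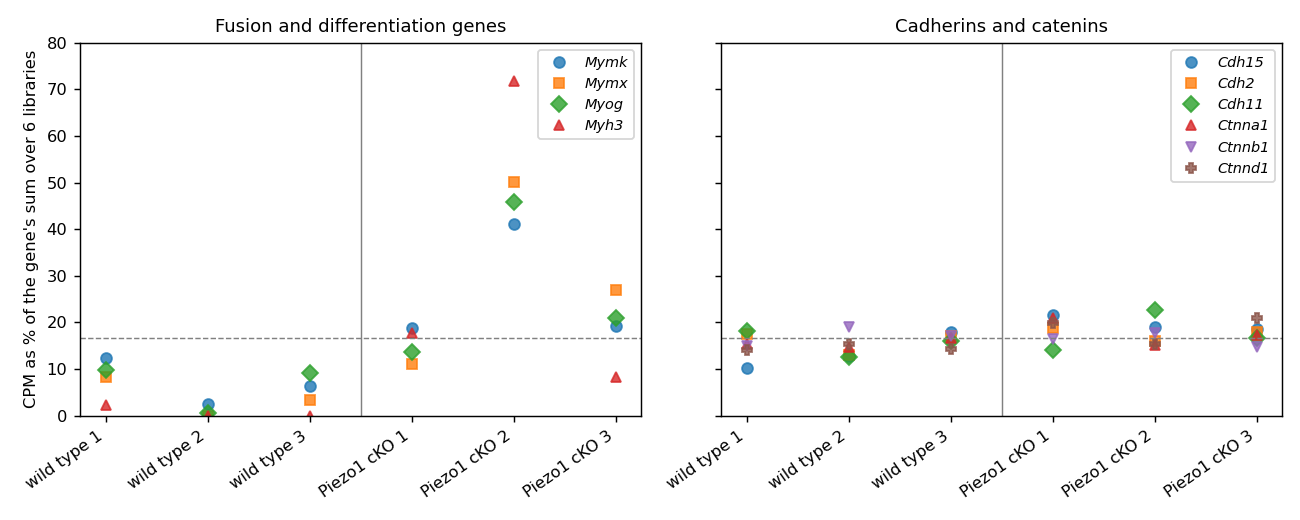
Share of the CPM of a gene, summed over the 6 libraries, that each library holds, in percent (vertical axis). Left, *Mymk*, *Mymx*, *Myog* and *Myh3*; right, the cadherins and catenins. The dashed line is an equal share, and the vertical line separates the groups. *Piezo1* cKO 2 holds 41.1% to 71.8% of the genes on the left, whereas those on the right stay between 10.1% and 22.7%.

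The genes whose log2 CPM was most like that of *Mymk* over the 6 libraries, of 8550 others, were *Cdkn2b* (Pearson's r = 0.994), *Lrrn1* (0.991), *Tnni1* (0.990), *Tppp3* (0.989) and *Pink1* (0.988). Spearman's rho was 1 for the first 4 and 0.943 for *Pink1*. *Cdkn2b* encodes an inhibitor of cyclin-dependent kinases, *Tnni1* the troponin I of slow muscle and *Pink1* a mitochondrial kinase. Of these genes, *Pink1* (log2 fold change 1.52, edgeR adjusted p = 0.000913) and *Tppp3* (0.69, adjusted p = 0.0248) were called. Both were higher in the libraries labelled *Piezo1* cKO, a direction in which 0.468% of all tested genes were called. Genes picked for following *Mymk* also follow its split between the groups, so these calls are no separate result. For *Cdh15* the closest were *Dcaf7* (r = 0.989, rho = 0.943), *Cast* (0.986, 0.829), *Fam8a1* (0.986, 0.943), *Ahcyl1* (0.984, 0.943) and *Hmgn3* (0.977, 0.771). Of these 5, 0 were called in edgeR, beside 0.784% of all tested genes. The 2 lists share no gene. These are descriptions over 6 libraries picked from many genes, and the points share library depth and group.

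The other cadherins were mostly too low to test. Of 12 measured cadherins, classical, desmosomal or of another type, 2 passed the filter, both with positive values (median log2 fold change 0.32), and 0 were called in edgeR. *Cdh13* (T-cadherin, which is anchored in the membrane by a lipid) had 47, 45 and 52 counts in wild type libraries and 56, 49 and 54 in the others, with a log2 fold change of 0.22 (adjusted p = 0.72). *Cdh1*, the E-cadherin of epithelia, had 0 counts in every library but *Piezo1* cKO 2, with 2. Of 14 protocadherins and large cadherins, 3 passed (1 positive, 2 negative, median -0.02) and 0 were called. *Fat1*, a giant cadherin, had a log2 fold change of 0.41 (adjusted p = 0.541). *Pcdh18* had -0.31 (adjusted p = 0.739), which was 0.06 without wild type 2. *Pcdh7* had -0.02 (adjusted p = 0.976), and its sign changed with total counts only, with limma-voom and in 3 of the fits with 1 library left out.

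Of 17 measured partners of the junction, 13 were tested (8 positive, 5 negative, median log2 fold change 0.06). In edgeR 0 were called, beside 0.784% of all tested genes. At an unadjusted p under 0.05 there were 0, beside 11.9% of all tested genes in either direction. *Pkp2*, a desmosomal relative of p120-catenin, had 0.37 (adjusted p = 0.544). *Afdn*, which links nectins to actin, had -0.35 (adjusted p = 0.618) with groups that did not overlap, lower in the libraries labelled *Piezo1* cKO, as in 8.31% of all tested genes. The nectin *Nectin3*, an adhesion receptor, had -0.03 (adjusted p = 0.965), and its sign changed with total counts only and in 4 of the fits with 1 library left out. Of 13 genes that repress cadherins or cleave them, 9 were tested (6 positive, 3 negative, median 0.09). Again 0 were called and 0 had an unadjusted p under 0.05, beside the same shares of all tested genes. The repressors *Zeb2* and *Zeb1* had 0.20 (adjusted p = 0.758) and -0.39 (adjusted p = 0.673).

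The Wnt branch of β-catenin was followed by 23 genes of its destruction complex, nuclear partners and targets. Of these, 14 were tested (11 positive, 3 negative, median log2 fold change 0.19), with 0 called in edgeR and 2 at an unadjusted p under 0.05, both higher, as were 6.14% of all tested genes. *Fst* (follistatin, an inhibitor of myostatin) had 1.02 (SE 0.38, unadjusted p = 0.00743, adjusted p = 0.191). Its level was 5.75, 13.4 and 18.9 CPM in wild type libraries and 15.2, 40.9 and 23.8 CPM in those labelled *Piezo1* cKO, so that the groups overlapped. Without *Piezo1* cKO 1, *Fst* passed the threshold (1.30, adjusted p = 0.0315), and without *Piezo1* cKO 2 it had 0.57 (adjusted p = 0.819). The destruction complex members *Axin1* and *Csnk1a1* had -0.19 (adjusted p = 0.779) and -0.07 (adjusted p = 0.905). The sign of *Axin1* changed without wild type 2, and that of *Csnk1a1* with total counts only and with cyclic loess. *Axin2*, a common target of Wnt signalling, had at most 1 count in any library, and no change in it was detectable at this depth.

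Among 28 other measured genes of myoblast fusion and the adhesion before it, 17 were tested (11 positive, 6 negative, median log2 fold change 0.10). In edgeR 1 was called, the cell adhesion molecule *Ncam1* (chr9:49502136-49798925, minus strand). Its level was 168, 169 and 200 CPM in wild type libraries and 224, 272 and 331 CPM in the other group, with no overlap. The means were 179 ± 17.7 and 276 ± 53.6 CPM (SD, n = 3). *Ncam1* rose by 0.62 on the log2 scale (SE 0.14, 95% interval 0.34 to 0.90, edgeR adjusted p = 0.011), and 0.468% of all tested genes were called in this direction. The call was lost in DESeq2 (adjusted p = 0.0911) and in edgeR with a block for the replicate number (0.0556). It was also lost without wild type 1 (0.0529), *Piezo1* cKO 2 (0.164) or *Piezo1* cKO 3 (0.321), whereas it held without each of the other 3 libraries. At an unadjusted p under 0.05 there were 3 higher and 2 lower genes in this list, beside 6.14% and 5.78% of all tested genes. One of the lower ones, *Vcam1*, is named after its values were seen, because its product was used to sort the cells: it had 124, 143 and 152 CPM against 117, 85.9 and 105 CPM, and a log2 fold change of -0.45 (adjusted p = 0.185).

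Fusion also needs a branched actin network. Of 25 measured genes of this machinery, 21 were tested (13 positive, 8 negative, median log2 fold change 0.05), with 0 called in edgeR, and 2 higher and 2 lower at an unadjusted p under 0.05, beside 6.14% and 5.78% of all tested genes. *Actr2*, a subunit of the Arp2/3 complex that branches actin, had 0.33 (adjusted p = 0.329). The GTPases *Rac1* and *Cdc42*, which act upstream of Arp2/3, had -0.36 (adjusted p = 0.231) and -0.09 (adjusted p = 0.863), and the sign of *Cdc42* changed with cyclic loess and without *Piezo1* cKO 2.

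**Figure D4:**
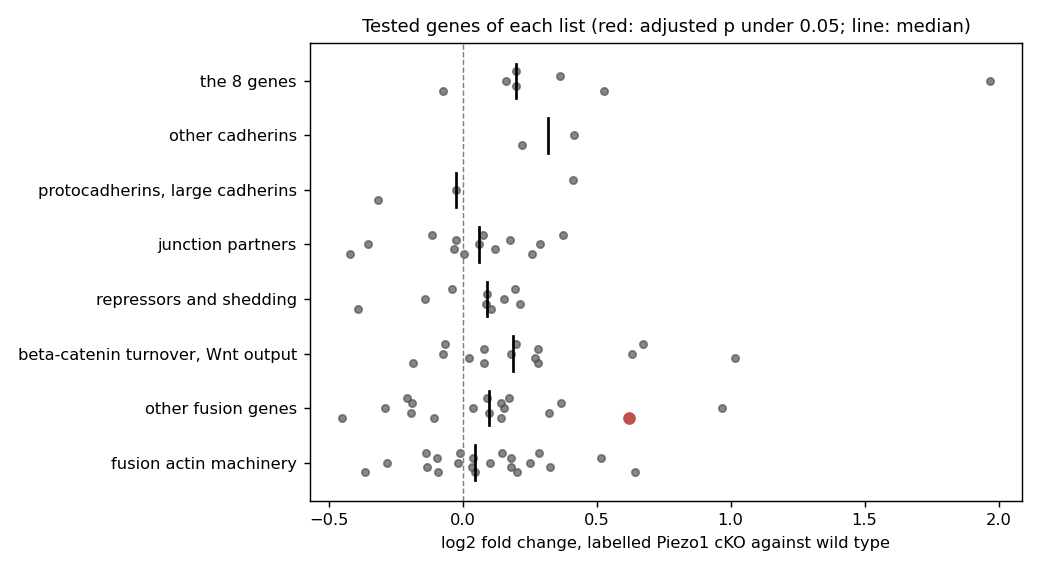
Log2 fold change, libraries labelled *Piezo1* cKO against wild type (horizontal axis), of the tested genes of the 8 adhesion and fusion genes and of 7 related lists (rows). Points are genes, shifted vertically to keep them apart, and black lines are medians. *Ncam1*, in red, is the only gene with an adjusted p under 0.05, and the medians lie between -0.02 and 0.32.

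The 5 measured markers of MuSCs had counts in all libraries, whereas *Calcr*, also on this list, had no row. *Des* (desmin) had 383 to 452 counts in wild type libraries and 391 to 455 in the others (log2 fold change 0.10, adjusted p = 0.846, and -0.03 without wild type 2), and *Pax7* had 5 to 26 counts per library. Of 5 measured MuSC markers, 4 were tested (2 positive, 2 negative, median -0.22), with 0 called in edgeR. *Sdc4* (syndecan-4) had -0.53 (adjusted p = 0.0609), with groups that did not overlap, as in 8.31% of all tested genes in that direction. It passed the threshold with no filter (0.0327, with 0.67% of genes called). It also passed with at least 10 counts in every library (0.0334, with 92 of 7510 genes called) and in 3 of the fits with 1 library left out. *Myf5* had 0.28 (adjusted p = 0.698).

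Among markers of other cell types, the fibro-adipogenic list and the pericyte and smooth muscle list partly moved with the groups. *Dcn* (decorin), the most abundant of the 6 fibro-adipogenic markers and the only one tested, fell by 2.17 on the log2 scale (SE 0.43, edgeR adjusted p = 0.000387), with 18, 23 and 37 counts in wild type libraries and 8, 5 and 3 in the others, where 0.316% of all tested genes were called lower. The 6 markers summed to 41.7, 40.2 and 76.8 CPM in wild type libraries and to 29.1, 22.4 and 23.8 CPM in those labelled *Piezo1* cKO. *Pdgfra*, which defines these cells, had 4, 3 and 8 against 1, 1 and 3 counts, and the groups overlapped. *Col1a1*, with 1, 7 and 17 against 8, 3 and 2 counts, overlapped too. *Lum* had 4, 1 and 0 against 1, 0 and 1 counts, also with overlap, and *Pi16* was at 0. *Ly6a* (Sca1), against which the cells were sorted, ran the other way, with 2, 2 and 3 against 5, 8 and 9 counts. Pericyte and smooth muscle markers (5 measured, 1 tested) summed to 48.9, 35.7 and 50.8 CPM against 62.1, 74.0 and 98.1 CPM. *Cspg4* was the most abundant (log2 fold change 0.76, edgeR adjusted p = 0.143). Its groups did not overlap, as in 8.2% of all tested genes in that direction. *Rgs5*, a pericyte marker, had 0, 0 and 1 against 2, 4 and 6 counts. The groups overlapped for *Pdgfrb*, another pericyte marker, with 3, 3 and 10 against 2, 7 and 3 counts. They also overlapped for *Notch3* (3, 4 and 7 against 6, 12 and 11 counts), and *Myh11* had 1 count, in *Piezo1* cKO 2. The part of these cells in the values of *Cdh15*, *Cdh11*, *Mymk* and *Ncam1* was not tested.

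The sums over the remaining marker lists overlapped between the groups. The 5 endothelial markers, with none tested, summed to 10, 5 and 1 counts against 3, 4 and 14, with *Tek* the most abundant and *Tie1* at 0. The 4 blood cell markers, with 1 tested, summed to 57.5, 62.5 and 68.5 CPM against 88.7, 66.0 and 76.9 CPM, mostly from *Laptm5* (log2 fold change 0.52, adjusted p = 0.302), and *Lyz2* had 11 counts in wild type 2 and at most 1 elsewhere. The 5 glial markers, with none tested, summed to 9, 9 and 6 counts against 8, 2 and 4, with *Mbp* the most abundant. The 4 tendon markers, with 2 tested, summed to 239, 147 and 222 CPM against 237, 239 and 215 CPM, mostly from *Scx* (0.15, adjusted p = 0.761, and -0.06 without wild type 2), which overlaps *Bop1* on the other strand, a gene with 1139 counts. *Mkx* had 1.21 (adjusted p = 0.256), and 2.10 without wild type 2.

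**Figure D5:**
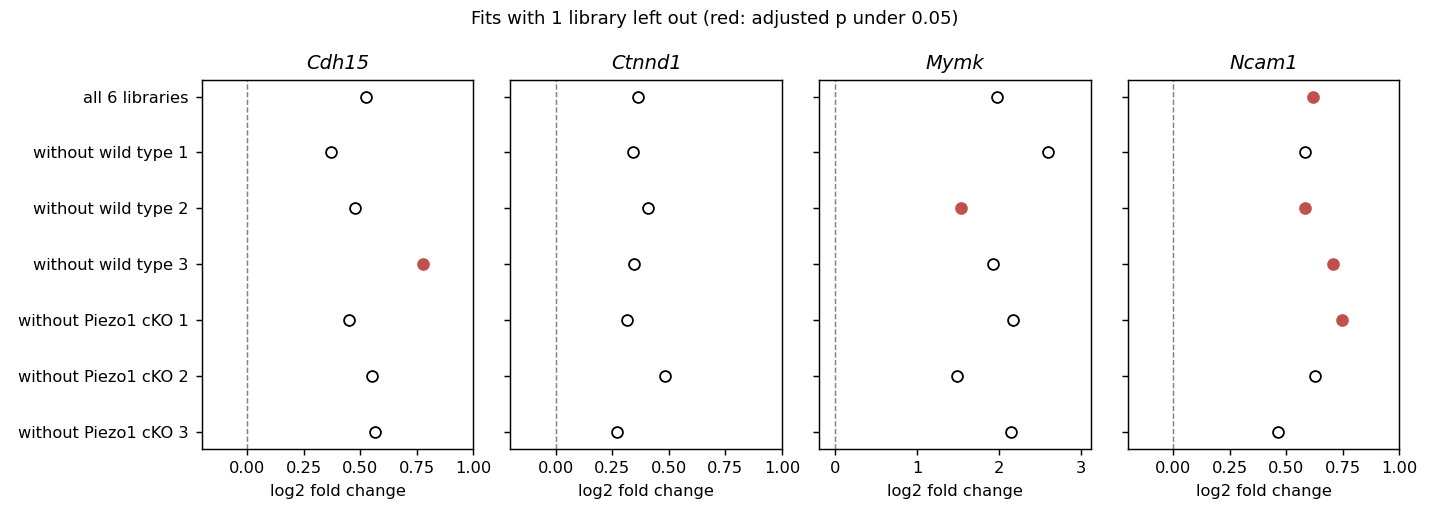
Log2 fold change (horizontal axes) of *Cdh15*, *Ctnnd1*, *Mymk* and *Ncam1* in edgeR with all 6 libraries (top) and with each library left out in turn. Red points have an adjusted p under 0.05. *Cdh15* passed in the fit without wild type 3, *Mymk* in the fit without wild type 2, *Ctnnd1* in none, and *Ncam1* with all libraries and in 3 of the 6 fits. Every value is above 0.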

How the data were processed

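MuSCs were harvested after 3 d of culture. From 500 pg of total RNA, the authors made cDNA with oligo-dT primers that carry barcodes, and amplified it in 12 PCR cycles. Their processing notes name STAR 2.7.9a, featureCounts 2.0.1, UMI-tools 1.1.1 and GRCm38. The deposited values are UMI counts per gene, not normalised. Settings for strand and for reads that map to several places are not given in the sources used here.

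Counts were analysed in R 4.3.3 with edgeR 4.0.16 (TMM, robust quasi-likelihood fit, minimum count 10 in its filter). Alternatives were DESeq2 1.42.0, limma 3.58.1 (voom, and cyclic loess with 3 iterations), other scalings and filters, a replicate block and each library left out. *Piezo1* and *Mymx* failed the filter and were fitted in a table that kept them, an alternative chosen after seeing the data. With 3 libraries against 3, an exact permutation test gives no two-sided p under 0.1. The calculations were tested on simulated data. The 8 genes and the 15 other lists were chosen with earlier results of these data known. All 8 genes are named, and from each list the called genes, or else the smallest p in each direction and the gene with the most counts. *Myh3*, *Tnnt2*, *Mef2c*, *Vcam1*, *Pax7*, *Cdh1*, *Axin2* and the markers *Pdgfra*, *Col1a1*, *Lum*, *Pi16*, *Ly6a*, *Rgs5*, *Pdgfrb*, *Notch3*, *Myh11*, *Tek*, *Tie1*, *Lyz2* and *Mbp* fall outside this rule and were named after their values were seen. The same holds for the neighbours of *Piezo1* named for groups without overlap. Some single genes are not reported here, though they stayed in every fit and count. Genes of the lists without a row were not analysed here. Positions come from GENCODE M21.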

Additional observations from a re-analysis of the deposited data

How the results depend on the processing

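The table held 67 called genes in edgeR, and this number was 32 with cyclic loess, 27 with DESeq2, 129 with no filter and 124 at an adjusted p under 0.1. Leaving out 1 library in turn gave a range of 6 to 174, with the lowest for *Piezo1* cKO 2 left out and the highest for *Piezo1* cKO 1. Of the 7 adhesion and fusion genes that passed the filter, 0 were called, and from 0 to 1 with 1 library left out (*Mymk* without wild type 2, *Cdh15* without wild type 3). No filter called 2 of all 8 (*Mymk* and *Mymx*). Kept despite the filter, *Mymx* also passed with DESeq2 size factors and without *Piezo1* cKO 1. The share of higher genes among the calls was 59.7% (40 higher, 27 lower). It was 44.4% (12 higher, 15 lower) with DESeq2 and 53.3% to 82.8% with 1 library left out. With total counts only it was 73.1% (49 higher, 18 lower), and the median log2 fold change of all tested genes moved to 0.08. These shares are in the direction the labels give, and higher and lower would change places if the labels were exchanged. Same-numbered libraries did not deviate together (r = -0.143, -0.203 and 0.012), so the numbers were not taken as pairs. With the replicate block 46 genes were called, 36 of them among the 67, and 0 of the 8 genes. The adjusted p of *Ncam1* was 0.0556 with the block. No library correlated best with the library of its own number.

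Some estimates, with main values from -0.314 (*Pcdh18*) to 0.2007 (*Cdh11*), changed sign, and the cause was not tested. With total counts only they were 0.0036 for *Ctnnb1*, 0.0547 for *Pcdh7*, 0.0477 for *Nectin3* and 0.0085 for *Csnk1a1*. With cyclic loess they were 0.09 for *Myod1*, 0.058 for *Csnk1a1* and 0.0812 for *Cdc42*, and with limma-voom 0.0025 for *Pcdh7*. With 1 library left out, the values ranged from -0.0144 to 0.346 for *Cdh11*, -0.1468 to 0.0232 for *Ctnnb1*, -0.5674 to 0.0621 for *Pcdh18*, -0.2083 to 0.148 for *Pcdh7*, -0.1831 to 0.0656 for *Nectin3*, -0.3852 to 0.014 for *Axin1*, -0.1724 to 0.0095 for *Cdc42*, -0.0259 to 0.2363 for *Des* and -0.0566 to 0.3025 for *Scx*. Depth limits genes of few counts, such as *Mymx*, *Piezo1*, *Axin2* and *Cdh1*.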
